A study of Mus musculus with 4 samples.

Results

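The interleukins and interleukin receptors of the pregnant uterus were taken as all protein-coding genes whose GRCm38 symbol starts with Il and a digit. Of 55421 genes in the count tables, 84 met this rule. Of these, 47 had at least 1 CPM (read pair count scaled to the library total) in at least 2 of the 4 libraries. So did 14492 genes in all, and 13400 of the 21976 protein-coding genes, a somewhat larger share than among the 84. The 84 genes carry 82 symbols, because Il11ra2 is annotated 3 times, and none of them lies on chromosome 17, which holds the H2 complex. RNA was sequenced from whole uteri of 2 WT mice (C57BL/6J) and 2 Qa-2- mice (B6.Cg-H2b3/FlaCmwJ, called B6.K1), all pregnant at E18.5 after matings within the strain, with 1 library per mouse. Qa-2 is a nonclassical MHC class I antigen encoded in the H2-Q region. B6.K1 mice lack it because of a natural H2 recombination rather than a targeted deletion, so that other H2 genes may also differ, and the fetuses of Qa-2- dams lacked it as well. The samples were pieces of the whole organ. The p-values reflect the spread between 2 mice of each genotype, which includes the piece taken. The spread of each gene was drawn toward that of all genes in the fit.

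Interleukins are secreted signals between leukocytes and tissue cells, and most act through a specific receptor chain that pairs with a chain shared by several cytokines. Cytokines of the IL-1 family are made by epithelia and myeloid cells, signal through receptors with a TIR domain and are held back by receptor antagonists and decoy receptors. In the uterus, IL-15 is known for maintaining uterine NK cells, IL-11 for its part in decidualization, and IL-1 and IL-6 for their rise at the onset of labour. In whole tissue, a lower level can come from fewer cells of a type or from less RNA per cell, and the 2 cannot be told apart.

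Between 33286390 and 41041299 read pairs were counted on genes per library. The Qa-2 genes matched the labels, with 4204 and 1192 counts of H2-Q6 in WT replicates 1 and 2 against 3 in each Qa-2- library, and 6318 and 1251 counts of H2-Q7 against 4 and 2. All 5 markers of uterine tissue (Pgr, Esr1, Hoxa10, Hoxa11 and Oxtr) passed the filter. Some markers of other cells were uneven between the libraries. Epithelial markers (Epcam, Cdh1, Krt8, Krt18 and Foxa2) summed to 2345 and 1365 TPM (scaled to gene length and library total) in WT and to 3598 and 3410 TPM in Qa-2-, and endothelial markers (Pecam1, Cdh5, Kdr and Tek) to 490 and 421 TPM in WT and to 231 and 205 TPM in Qa-2-. Mesothelial markers (Msln, Upk3b and Lrrn4), all 3 higher in both WT libraries, summed to 49.7 and 45.6 TPM in WT and to 21.3 and 11.1 TPM in Qa-2-, and smooth muscle markers (Myh11, Acta2, Cnn1 and Des) to 13010 and 23177 TPM in WT and to 13486 and 7147 TPM in Qa-2-. Yolk sac markers summed to 428 TPM in Qa-2- replicate 1 and trophoblast markers to 44.0 TPM in WT replicate 2, against at most 36.8 and 6.52 TPM in the other libraries.

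The 4 promoters below belong to IL-1 family ligands whose values are described further on. Il1a and Il1b lie next to each other on chromosome 2, and Il1f8 and Il1f9 are ligands of the IL-36 receptor in a second cluster on the same chromosome. Each sequence is the 250 bases before the transcription start from RefSeq (GRCm38.p6), read 5′ to 3′ on the strand of the gene. Capitals mark a match to TATAAA, the TATA box, or to TTCNNNGAA, the palindrome bound by STAT factors, searched on both strands.
Il1a (chr2:129309973-129310222, minus strand): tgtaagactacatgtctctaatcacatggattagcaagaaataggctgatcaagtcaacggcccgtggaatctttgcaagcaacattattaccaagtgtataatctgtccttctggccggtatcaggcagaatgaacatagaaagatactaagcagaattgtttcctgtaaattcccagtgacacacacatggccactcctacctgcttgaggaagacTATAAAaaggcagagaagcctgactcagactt
Il1b (chr2:129371140-129371389, minus strand): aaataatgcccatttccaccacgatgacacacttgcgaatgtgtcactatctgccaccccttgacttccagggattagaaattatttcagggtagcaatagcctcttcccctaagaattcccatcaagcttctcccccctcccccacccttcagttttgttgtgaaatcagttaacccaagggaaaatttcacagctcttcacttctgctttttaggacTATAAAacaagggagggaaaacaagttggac
Il1f8 (chr2:24152922-24153171, plus strand): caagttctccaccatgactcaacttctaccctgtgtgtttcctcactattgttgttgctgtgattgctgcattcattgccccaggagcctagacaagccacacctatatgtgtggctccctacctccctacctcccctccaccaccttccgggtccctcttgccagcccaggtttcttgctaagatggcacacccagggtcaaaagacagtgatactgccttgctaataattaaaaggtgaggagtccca
Il1f9 (chr2:24186226-24186475, plus strand): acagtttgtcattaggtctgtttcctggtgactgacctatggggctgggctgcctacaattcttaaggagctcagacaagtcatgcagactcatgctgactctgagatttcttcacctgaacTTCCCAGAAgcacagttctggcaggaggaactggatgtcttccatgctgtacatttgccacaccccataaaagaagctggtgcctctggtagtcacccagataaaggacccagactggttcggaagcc
Il1a and Il1b both hold TATAAA close to the start, from 32 to 27 and from 31 to 26 bases before it. Il1f9 holds TTCNNNGAA from 128 to 120 bases before the start, and Il1f8 holds neither motif. Promoters were found for 65 of the 82 symbols, and TATAAA was present in at least 1 promoter of 12 of them and TTCNNNGAA of 8. Among all 32851 promoters of this length, 12.4% hold TATAAA and 7.02% hold TTCNNNGAA. These matches describe the letters only.

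To find out which interleukin signals can be read in the term uterus, detection was counted by role. Of 37 ligand genes 13 passed the filter and 11 had no count in any library, whereas 29 of 40 receptor genes passed. Of the 6 antagonists and decoy receptors 4 passed, all of the IL-1 family. By family, 16 of 20 IL-1 family genes passed, 9 of 14 genes of the common gamma chain family, 7 of 11 of the IL-17 family, 5 of 12 of the gp130 family, 4 of 11 of the IL-10 family, 3 of 7 of the IL-3, IL-5 and IL-13 group, and 0 of 6 of the IL-12 family. The 5 gp130 family genes that passed were all receptors. Il16, Il34 and Il4i1 stood outside these families, and all 3 passed.

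The 5 genes with the highest mean level were Il6st (133 TPM), Il4ra (118 TPM), Il1a (71.1 TPM), Il11ra1 (54.7 TPM) and Il17rc (51.8 TPM). Il6st encodes gp130, the chain shared by the IL-6 cytokines, Il4ra the receptor chain for IL-4 and IL-13, and Il17rc a chain of the IL-17A and IL-17F receptor. These 5 genes made up between 42.8% and 52.2% of the summed TPM of the 84 genes, which was 831 and 789 TPM in WT and 877 and 1079 TPM in Qa-2-. Il1a was the only ligand among them. Among the genes that passed, the median of the mean levels was 8.33 TPM, against 15.3 TPM for all genes that passed. Il11ra1 is nearly identical to Il11ra2, and pairs with several positions were not counted, so that its level is uncertain.

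**Figure D1:**
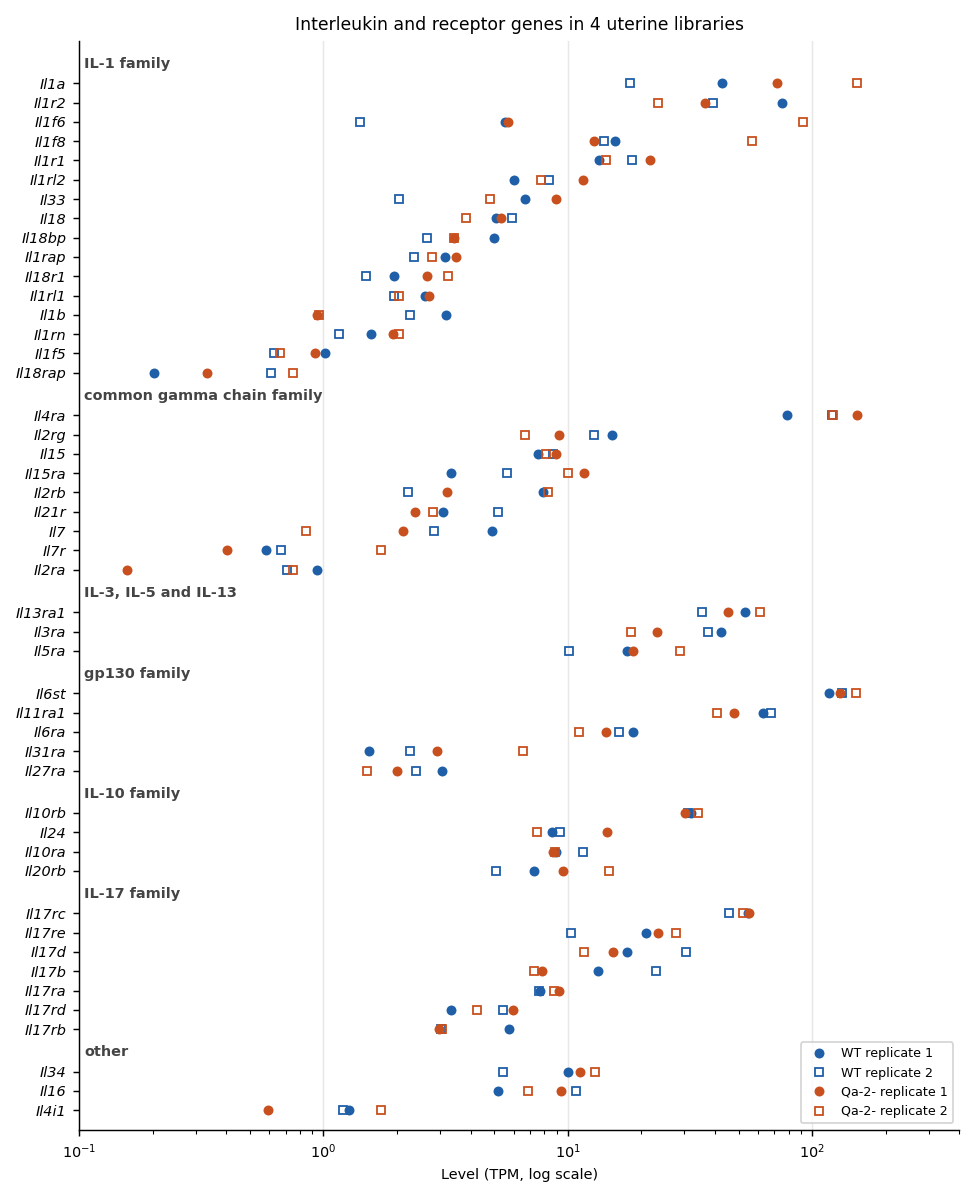
Levels of the 47 genes that passed the filter, in TPM on a log axis, with 1 point per library (circles for replicate 1, squares for replicate 2, blue for WT and orange for Qa-2-), grouped by family. Il6st and Il4ra lie highest in most libraries, and in Qa-2- replicate 2 Il1a reaches 152 TPM and Il1f6 91.5 TPM.

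Many cytokine genes were near or at the limit of detection. A count of 0 allows a level of up to 3 counts, which is between 0.0731 and 0.0901 CPM by library and covers counting error only. Il17a, Il12a, Il21, Il22, Il13 and Il9 had no count in any library, Il17f had 1 count in Qa-2- replicate 2 alone, and Il5 had 1 count in each library except WT replicate 1, where it had 0. The T helper type 2 cytokine Il4 had 9 and 0 counts in WT and 1 and 0 in Qa-2-, and Il2, a growth factor of T cells, had 5 and 2 against 7 and 1. In all, 13 genes had no count, and 19 had at most 3 counts in every library.

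The other key cytokines below the filter had between 0 and 39 counts per library. Il11, which signals through Il11ra1 and gp130, had 34 and 35 counts in WT and 25 and 24 in Qa-2-. Il23a, a subunit of IL-23, had 34 and 21 against 24 and 39, and Il12b, the subunit that IL-12 and IL-23 share, 3 and 11 against 0 and 9. Il6 had 2 and 18 counts in WT and 7 and 3 in Qa-2-, Il10 14 and 3 against 12 and 7, and Il27 7 and 0 against 5 and 9. Of these, Il11 alone had both WT libraries above both Qa-2- libraries once scaled to depth, at 0.828 and 0.888 CPM in WT and at 0.716 and 0.721 CPM in Qa-2-. Il12rb1, a chain of the IL-12 and IL-23 receptors that was chosen after its values were seen, had 49 and 20 counts in WT and 9 in each Qa-2- library. Near the threshold, the second highest CPM was 1.02 for Il7r, 1.32 for Il1f5 and 1.35 for Il18rap just inside it, and 0.950 for Il1f9, 0.828 for Il23a, 0.828 for Il11 and 0.736 for Il13ra2 just outside.

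WT and Qa-2- uteri were then compared gene by gene in one fit over all 14492 genes. After Benjamini-Hochberg adjustment of the quasi-likelihood p in edgeR, 0 of the 47 genes passed 0.05, and the same held for all genes (0% called). At an unadjusted p under 0.05, 9 genes (19.1%) were higher in WT, namely Il11ra1, Il17b, Il17d, Il1b, Il1r2, Il2rg, Il3ra, Il6ra and Il7, where 8.09% of all genes were. In the same way, 3 genes (6.38%) were higher in Qa-2-, namely Il15ra, Il1a and Il1f6, where 7.09% of all genes were. DESeq2 called 5 of the genes at an adjusted p under 0.05. Il11ra1, Il17b and Il3ra were higher in WT (6.38%, against 2.79% of all genes), and Il15ra and Il1a were higher in Qa-2- (4.26%, against 2.04%).

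In 14 genes (29.8%) both WT libraries lay above both Qa-2- libraries, as in 25.4% of all genes, and in 7 genes (14.9%) both lay below, as in 24.5% of all genes. With library totals in place of TMM scaling, these counts were 13 and 10. The median log2 fold change (WT over Qa-2-) was -0.03, against 0.01 for all genes, with 23 genes above 0 and 24 below. With 2 mice against 2, an exact permutation test of a single value cannot give a two-sided p under 0.33. A gene without overlap can hardly change its direction when 1 library is left out. That covers every gene at an unadjusted p under 0.05 except Il1f6, so that a kept direction adds little support. All 12 genes at an unadjusted p under 0.05 kept their direction when any 1 library was left out. Without Qa-2- replicate 2, however, 4 genes were under it (Il11ra1, Il15ra, Il3ra and Il2ra), and the first 3 of these were under it whichever library was left out. Without WT replicate 1 the split turned, with 5 genes above Qa-2- in WT and 8 below.

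**Figure D2:**
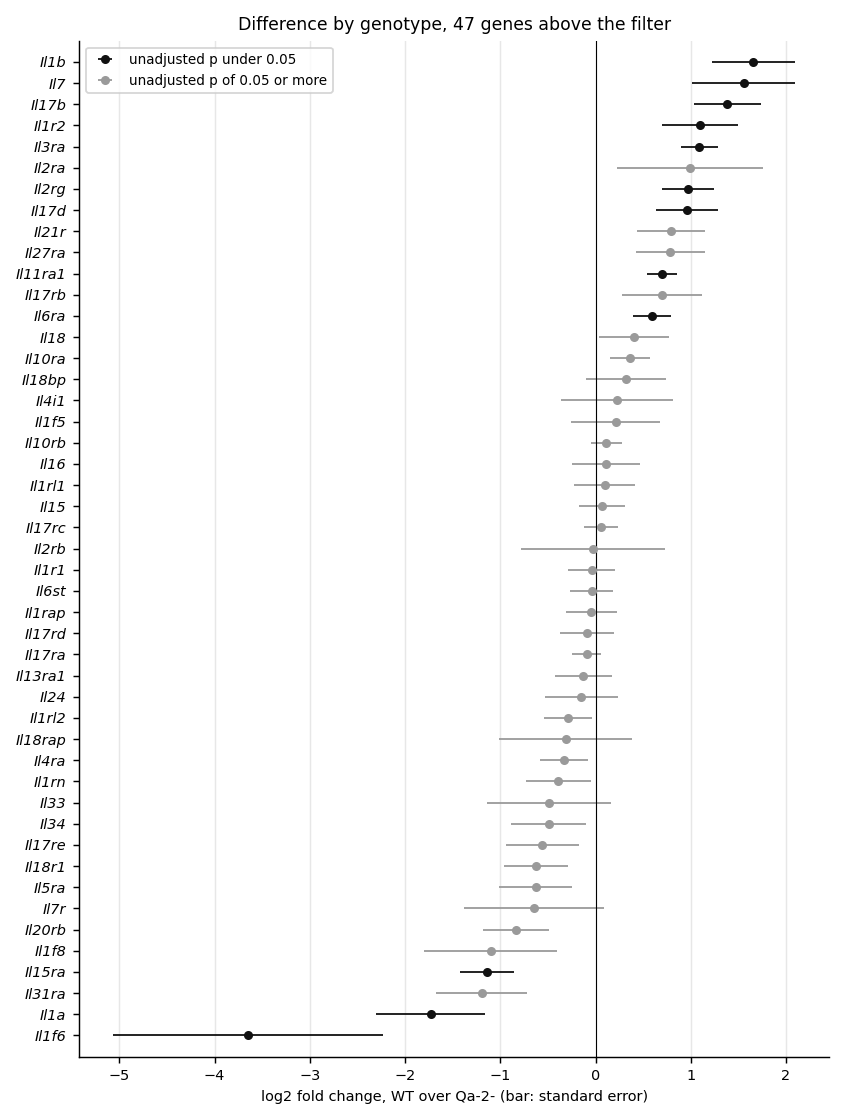
Log2 fold change (WT over Qa-2-) of the 47 genes that passed the filter, with the standard error as a bar and black points for an unadjusted p under 0.05. The values run from -3.65 for Il1f6 to 1.65 for Il1b, and the bar of Il1f6 is the longest.

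Within the IL-1 family, Il1a and Il1b lay in opposite order between the genotypes. Il1a, a cytokine of epithelia and myeloid cells that is released on injury, was at 30.9 and 12.1 normalised CPM (scaled by TMM) in WT replicates 1 and 2 and at 44.5 and 98.4 in Qa-2- replicates 1 and 2. Both Qa-2- libraries lay above both WT libraries, with means of 71.4 ± 38.1 and 21.5 ± 13.3 (SD, n = 2). The log2 fold change was -1.73 (SE 0.57), with an adjusted p of 0.296 in edgeR and of 0.0260 in DESeq2, and it was -1.05 without Qa-2- replicate 2 and -2.59 without WT replicate 1. Il1b, the secreted form of IL-1 that inflammasomes activate, was at 2.22 and 1.46 normalised CPM in WT and at 0.565 and 0.602 in Qa-2-. Both WT libraries lay above both Qa-2- libraries, on low levels, with a log2 fold change of 1.65 (SE 0.44) and an adjusted p of 0.271 in edgeR. On the TPM scale, the ratio of Il1a to Il1b was 13.4 and 8.01 in WT and 76.2 and 158 in Qa-2-. The 5 neutrophil markers, of which 2 passed the filter, summed to 25.5 and 17.9 TPM in WT and to 8.52 and 20.2 TPM in Qa-2-. Csf3r was at 4.22 and 6.43 normalised CPM in WT and at 3.64 and 3.12 in Qa-2-, S100a9 at 2.97 and 1.54 against 0.508 and 2.29, and Ly6g had 0 counts except for 2 in Qa-2- replicate 1. Macrophage markers summed to 764 and 1097 TPM in WT and to 694 and 510 TPM in Qa-2-, with 3 of 5 higher in both WT libraries, and the part of these cells in the Il1b values was not tested.

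The IL-36 ligands were high in 1 library. Il1f6 (IL-36 alpha) was at 1.80 and 0.425 normalised CPM in WT and at 1.58 and 26.5 in Qa-2-, and Il1f8 (IL-36 beta) was at 6.94 and 5.82 in WT and at 4.91 and 22.5 in Qa-2-. Il1f9 (IL-36 gamma), which stayed below the filter, had 39 and 25 counts in WT and 13 and 352 in Qa-2-. In all 3 genes Qa-2- replicate 2 stood highest, while Qa-2- replicate 1 lay within the WT range for Il1f6 and below both WT libraries for Il1f8 and Il1f9 (0.950 and 0.635 CPM of Il1f9 in WT against 0.372). The log2 fold change of Il1f6 was -3.65 (SE 1.42) with an adjusted p of 0.325 in edgeR, and it was -0.50 without that library and -5.06 without WT replicate 1, while that of Il1f8 turned from -1.10 to 0.38. Lcn2 and Ltf, antimicrobial proteins of uterine epithelium and neutrophils, were highest in the same library, at 4651 normalised CPM of Lcn2 against 332 to 543 in the other libraries and at 4943 of Ltf against 415 to 1351. Muc4, a mucin of the epithelial surface, was at 11.0 and 9.67 normalised CPM in WT and at 23.0 and 90.1 in Qa-2-. Squamous epithelium, which expresses IL-36 ligands strongly, was followed by 3 markers. In WT replicates 1 and 2 and Qa-2- replicates 1 and 2, Krt5 had 23, 38, 14 and 17 counts, Krt14 had 10, 6, 2 and 0, and Trp63 had 8, 7, 11 and 17. Of the 5 epithelial markers, 4 were higher in both Qa-2- libraries, and the part of epithelial cells in the Il1a and IL-36 values was not tested. Lcn2, Ltf, Muc4 and the squamous markers were chosen after the IL-1 family values were seen.

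The other 2 detected ligands differed less. Il18, which drives interferon gamma production, was at 1.92 and 2.07 normalised CPM in WT and at 1.72 and 1.29 in Qa-2-, so that both WT libraries were slightly higher (log2 fold change 0.41, SE 0.37). Il33, an alarmin held in the nucleus, was at 7.04 and 1.99 in WT and at 8.13 and 4.56 in Qa-2-. The WT libraries differed at least 3-fold here, and the genotypes overlapped.

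**Figure D3:**
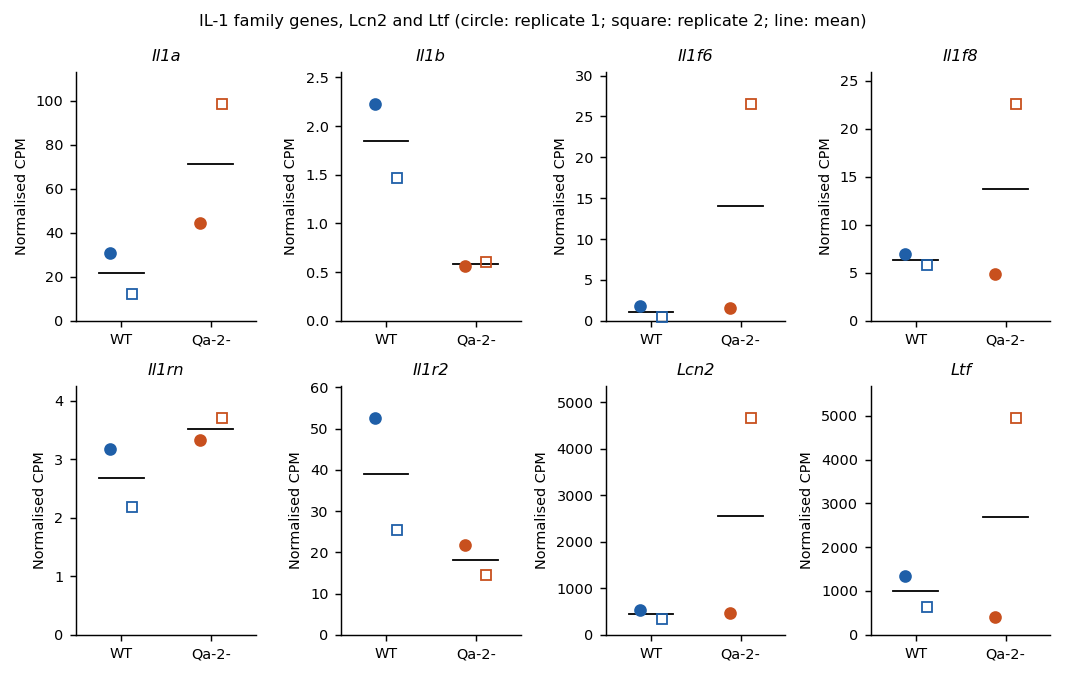
Normalised CPM of 6 IL-1 family genes and of Lcn2 and Ltf by genotype on linear axes (circle for replicate 1, square for replicate 2, line for the mean of 2 mice). Il1a is higher and Il1b lower in both Qa-2- libraries, and Il1f6, Il1f8, Lcn2 and Ltf are high in Qa-2- replicate 2 alone.

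The brakes on IL-1 were read next. Il1r2, the decoy receptor that binds IL-1 without signalling, was at 52.5 and 25.5 normalised CPM in WT and at 21.8 and 14.6 in Qa-2-. WT replicate 1 stood highest, and the lower WT library lay close to the higher Qa-2- library without overlap (log2 fold change 1.10, SE 0.40, and 0.46 without WT replicate 1). Its adjusted p was 0.313 in edgeR. Il1rn, the secreted receptor antagonist, was at 3.17 and 2.18 in WT and at 3.33 and 3.70 in Qa-2-, with both Qa-2- libraries above WT by a small margin (log2 fold change -0.39, SE 0.34). Il1f5, the antagonist of the IL-36 receptor, and Il18bp, which binds IL-18, had log2 fold changes of 0.21 (SE 0.47) and 0.32 (SE 0.42) and overlapped.

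The signalling and decoy receptor genes Il1r2, Il1r1, Il1rl2, Il1rl1, Il18r1 and Il18rap form a cluster on chromosome 1, from Il1r2 at chr1:40074079-40125231 to Il18rap at chr1:40515362-40551705. Il1r1, the signalling receptor, was at 31.4 and 39.8 normalised CPM in WT and at 43.4 and 29.7 in Qa-2-, with overlapping genotypes. The ratio of decoy Il1r2 to Il1r1 on the TPM scale was 5.58 and 2.14 in WT and 1.68 and 1.64 in Qa-2-. Il18r1, the binding chain for IL-18, was at 3.45 and 2.44 in WT and at 4.01 and 5.10 in Qa-2-, so that both Qa-2- libraries were higher (log2 fold change -0.63, SE 0.34). The receptor for the IL-36 ligands, Il1rl2, the IL-33 receptor Il1rl1, the shared chain Il1rap and Il18rap overlapped between genotypes, with log2 fold changes from -0.31 to 0.09. The lowest of these, that of Il18rap, ran from -1.24 without WT replicate 2 to 0.43 without Qa-2- replicate 2, and was 0.22 without WT replicate 1.

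In the common gamma chain family, the shared chain itself was lower in both Qa-2- libraries. Il2rg was at 13.3 and 10.4 normalised CPM in WT and at 6.92 and 5.21 in Qa-2-, with means of 11.9 ± 2.03 and 6.07 ± 1.20 (SD, n = 2). The log2 fold change was 0.97 (SE 0.27) and the adjusted p 0.275 in edgeR. The pan-leukocyte gene Ptprc lay in the opposite order, at 33.6 and 38.8 normalised CPM in WT and at 44.6 and 46.0 in Qa-2-. Of the 5 macrophage markers 3 were higher in both WT libraries, among them C1qa at 163 and 223 against 108 and 89.5. Csf1r and Mrc1 overlapped, and the part of these cells in the Il2rg values was not tested. Il7, a survival factor for lymphocytes that is made by stromal and endothelial cells, was at 10.2 and 5.45 in WT and at 3.76 and 1.58 in Qa-2-. All Qa-2- values lay below WT, although the libraries of each genotype were also spread (log2 fold change 1.55, SE 0.54, adjusted p 0.306 in edgeR). Without WT replicate 1 the log2 fold change was 1.0, and without Qa-2- replicate 1 it was 2.31. The endothelial markers were lower in both Qa-2- libraries, as given above. Of the 3 stromal markers, Dcn was at 3503 and 2778 normalised CPM in WT and at 1891 and 1289.75 in Qa-2-, Pdgfra lay in the opposite order at 172 and 253 against 330.4 and 309.7, and Col1a1 overlapped. The list summed to 3959.9 and 7891 TPM in WT and to 8497 and 4217 TPM in Qa-2-, and the part of these cells in the Il7 values was not tested.

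IL-15 is unusual in that it is presented on the cell surface by its own receptor chain. Il15ra was at 5.44 and 8.55 normalised CPM in WT and at 16.3 and 14.6 in Qa-2-. The genotypes were clearly apart, with means of 7.0 ± 2.20 and 15.5 ± 1.15 (SD, n = 2), a log2 fold change of -1.14 (SE 0.29), and an adjusted p of 0.257 in edgeR and of 0.0243 in DESeq2. Il15 was at 6.27 and 6.69 in WT and at 6.32 and 6.05 in Qa-2-, a log2 fold change of 0.07 (SE 0.24). The TPM ratio of Il15ra to Il15 was 0.442 and 0.650 in WT and 1.31 and 1.23 in Qa-2-. Il2ra lies next to Il15ra on chromosome 2 and encodes the alpha chain for IL-2. It was at 1.97 and 1.38 in WT and at 0.282 and 1.40 in Qa-2-, with Qa-2- replicate 1 low and no separation of the genotypes (log2 fold change 0.99, SE 0.76, and 0.26 without Qa-2- replicate 1 and 2.56 without Qa-2- replicate 2).

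Il2rb, the signalling chain shared by IL-2 and IL-15, was at 12.4 and 3.24 normalised CPM in WT and at 4.32 and 11.6 in Qa-2-. It was high in 1 library of each genotype, and its log2 fold change of -0.03 (SE 0.75) went to 0.63 without WT replicate 2 and to 0.86 without Qa-2- replicate 2. NK cell markers were uneven too, in different orders. Eomes was at 1.40 and 0.372 in WT and at 0.367 and 1.03 in Qa-2-, and Prf1 at 78.4 and 2.39 against 1.33 and 4.56, whereas Ncr1 had 9 and 13 counts in WT and 23 and 32 in Qa-2-, and Klrb1c 18 and 33 against 18 and 43. The 5 NK cell markers, of which 3 passed the filter, summed to 136 and 8.15 TPM in WT and to 7.87 and 19.1 TPM in Qa-2-, and their part in the Il2rb values was not tested. Il7r, the receptor for IL-7, was at 0.999 and 1.06 in WT and at 0.593 and 2.64 in Qa-2-, with Qa-2- replicate 2 highest. The 5 T cell markers summed to 1.51 and 3.98 TPM in WT and to 3.61 and 3.95 TPM in Qa-2-, and the 1 that passed the filter, Cd4, had 39 and 109 counts in WT and 116 and 102 in Qa-2-, higher in both Qa-2- libraries once scaled. Il21r was at 3.74 and 5.87 in WT and at 2.48 and 3.07 in Qa-2-, with both WT libraries higher (log2 fold change 0.79, SE 0.36). Il4ra, its neighbour on chromosome 7, was at 173 and 246 in WT and at 289 and 239 in Qa-2- and overlapped (log2 fold change -0.33, SE 0.25).

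The specific receptor chain for IL-3 showed the smallest unadjusted p among the 47 genes. Il3ra was at 45.9 and 38.0 normalised CPM in WT and at 21.7 and 17.7 in Qa-2-, and the gap between genotypes was wider than the spread within either (means 41.9 ± 5.58 and 19.7 ± 2.83, SD, n = 2). The log2 fold change was 1.09 (SE 0.19), between 0.92 and 1.25 when single libraries were left out, with an adjusted p of 0.246 in edgeR and of 0.00334 in DESeq2. Of the partner chains of Il3ra, Csf2rb was at 16.9 and 27.2 normalised CPM in WT and at 17.4 and 16.1 in Qa-2-. Csf2rb2 was at 12.5 and 18.4 against 13.4 and 10.2, and both chains overlapped between genotypes. The ligand Il3 had no count in any library. IL-3 receptors are carried by basophils, dendritic cells and endothelium. All 4 endothelial markers were higher in both WT libraries, among them Cdh5 at 445 and 239 normalised CPM in WT and 116 and 105 in Qa-2-, whereas the 4 mast cell markers overlapped between genotypes. Of the 4 dendritic cell markers 2 passed the filter, with Flt3 in the opposite order at 0.699 and 0.452 normalised CPM in WT and 1.81 and 1.26 in Qa-2- and Zbtb46 overlapping, and the list summed to 4.24 and 4.79 TPM in WT and to 5.93 and 4.75 TPM in Qa-2-. The part of these cells in the Il3ra values was not tested. Il5ra, the receptor of eosinophils, and Il13ra1, which pairs with Il4ra, overlapped, with log2 fold changes of -0.63 (SE 0.38) and -0.13 (SE 0.30). That of Il5ra was -1.17 without WT replicate 1 and -0.24 without Qa-2- replicate 2.

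Of the 5 gp130 family receptors that passed the filter, 3 specific chains (Il11ra1, Il6ra and Il27ra) were lower in both Qa-2- libraries, as were 25.4% of all genes, 1 (Il31ra) was higher in both, as were 24.5%, and the shared chain overlapped. Il11ra1 was at 103 and 103 normalised CPM in WT and at 67.3 and 59.4 in Qa-2-. The WT libraries were nearly equal and both well above Qa-2-, with a log2 fold change of 0.70 (SE 0.15). The adjusted p was 0.246 in edgeR and 0.0369 in DESeq2. These values rest on the pairs placed at Il11ra1 alone, so that the limit given above applies. Il6ra was at 58.7 and 47.5 in WT and at 39.0 and 31.3 in Qa-2-, without overlap (log2 fold change 0.59, SE 0.20, adjusted p 0.296 in edgeR). Il6st was at 478 and 498 in WT and at 454 and 551 in Qa-2-, with Qa-2- on both sides of WT (log2 fold change -0.04, SE 0.23). Il27ra, the specific chain for IL-27, was low, at 3.92 and 2.84 in WT and at 2.20 and 1.72 in Qa-2-, and again higher in both WT libraries (log2 fold change 0.79, SE 0.36). Il31ra lies beside Il6st on chromosome 13 and pairs with the oncostatin M receptor to bind IL-31. It took the opposite order, at 3.20 and 4.38 in WT and at 5.20 and 12.2 in Qa-2-, mostly through Qa-2- replicate 2 (log2 fold change -1.20, SE 0.47, and -0.46 without that library).

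**Figure D4:**
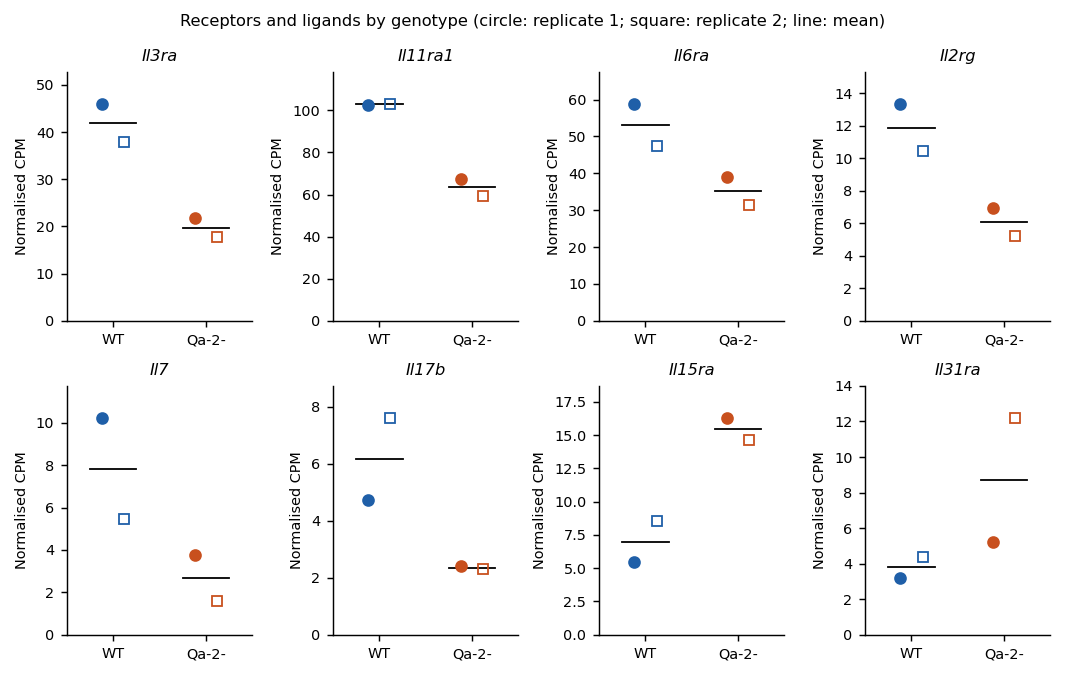
Normalised CPM of 8 receptor and ligand genes by genotype on linear axes (circle for replicate 1, square for replicate 2, line for the mean of 2 mice). Il3ra, Il11ra1, Il6ra, Il2rg, Il7 and Il17b are lower and Il15ra and Il31ra higher in both Qa-2- libraries.

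In the IL-17 family the ligands that passed the filter were Il17b and Il17d. Il17b was at 4.74 and 7.60 normalised CPM in WT and at 2.40 and 2.32 in Qa-2-, and Il17d at 8.16 and 13.2 in WT and at 6.13 and 4.84 in Qa-2-. In both genes WT replicate 2 was highest and both Qa-2- libraries were lowest. Of the 4 smooth muscle markers 3 were also higher in both WT libraries, among them Des at 5373 and 8055 normalised CPM in WT and at 3747 and 2032 in Qa-2-, and the part of these cells in the Il17b and Il17d values was not tested. The log2 fold changes were 1.38 (SE 0.35) and 0.96 (SE 0.33), with adjusted p of 0.262 and 0.302 in edgeR, and DESeq2 gave adjusted p of 0.0291 and 0.143. Il17rb, the receptor for IL-17B and IL-25, was at 7.84 and 3.83 in WT and at 3.47 and 3.72 in Qa-2-. It was separated only through a narrow margin, and its log2 fold change of 0.70 (SE 0.42) was 0.06 without WT replicate 1. Il17ra, the chain common to most IL-17 receptors, was at 24.4 and 22.4 in WT and at 25.1 and 24.9 in Qa-2-, and although the genotypes did not overlap, they differed little (log2 fold change -0.09, SE 0.15). The neighbours Il17rc and Il17re on chromosome 6 and Il17rd overlapped. Il17re had a log2 fold change of -0.56 (SE 0.38), which was -1.25 without WT replicate 1 and -0.11 without WT replicate 2. That of Il17rd was -0.09 (SE 0.28). Il17rc was at 53.7 and 41.5 in WT and at 46.1 and 45.4 in Qa-2- (log2 fold change 0.06, SE 0.18).

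The IL-10 family was read mainly through its receptors. Il10ra, the specific chain for IL-10 on leukocytes, was at 11.5 and 13.7 normalised CPM in WT and at 9.57 and 10.1 in Qa-2-, higher in both WT libraries (log2 fold change 0.36, SE 0.21). Il20rb, the epithelial chain for IL-20 and IL-24, was at 11.2 and 7.28 in WT and at 12.6 and 20.3 in Qa-2-. Both Qa-2- libraries were higher (log2 fold change -0.84, SE 0.34, and -0.45 without Qa-2- replicate 2 and -1.21 without WT replicate 1). Of the 5 epithelial markers 4 were also higher in both Qa-2- libraries, and their part in the Il20rb values was not tested. The shared chain Il10rb and the ligand Il24 overlapped, with log2 fold changes of 0.11 (SE 0.17) and -0.15 (SE 0.38). The remaining genes Il16, Il34 and Il4i1 also overlapped, and Il4i1, an amino acid oxidase induced by IL-4, was at 1.90 and 1.67 in WT and at 0.762 and 2.29 in Qa-2-.

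Genes that work with the interleukins but have other symbols were taken from 5 lists (related cytokines and receptor chains, JAK and STAT, SOCS, receptor adaptors, and IL-1 processing). Of 61 such genes 56 passed the filter, and edgeR called 0 of them after adjustment, while DESeq2 called 2, Lif and Stat5a, both higher in Qa-2-, where it called 2.04% of all genes. At an unadjusted p under 0.05, 1 gene was higher in WT and 5 were higher in Qa-2-, where 8.09% and 7.09% of all genes were, so that the count in Qa-2- was near the background. Lif, the gp130 cytokine required for implantation, was at 2.67 and 2.60 normalised CPM in WT and at 5.99 and 8.54 in Qa-2-. Both Qa-2- mice were well above WT, with a log2 fold change of -1.46 (SE 0.31), and an adjusted p of 0.246 in edgeR and of 0.00597 in DESeq2. Its receptor Lifr, named here after its values were seen, was at 148 and 90.3 in WT and at 192 and 223 in Qa-2-, and the related cytokine Clcf1 at 15.6 and 20.1 against 32.4 and 27.0. Both followed the order of Lif, with log2 fold changes of -0.80 (SE 0.28) and -0.73 (SE 0.21). That of Lifr was -0.49 without WT replicate 2 and -1.23 without WT replicate 1. Of the 5 epithelial markers 4 were also higher in both Qa-2- libraries. The part of these cells in the Lif, Lifr and Clcf1 values was not tested.

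Of the 10 JAK and STAT genes that passed, 5 were higher in both Qa-2- libraries, as were 24.5% of all genes, and 0 in both WT libraries, as were 25.4%. Stat5a, which acts downstream of the gamma chain cytokines, prolactin and others, was at 22.2 and 21.2 normalised CPM in WT and at 37.2 and 58.8 in Qa-2-. The WT mice were close together, and the log2 fold change was -1.14 (SE 0.26), with an adjusted p of 0.246 in edgeR and of 0.0102 in DESeq2. Stat5b was at 42.3 and 44.8 against 55.2 and 59.2, and the kinase Jak2 at 212 and 123 against 256 and 328. Both were higher in the Qa-2- mice, with log2 fold changes of -0.39 (SE 0.14) and -0.80 (SE 0.32). That of Jak2 was -0.46 without WT replicate 2 and -1.27 without WT replicate 1. The part of epithelial cells in the Stat5a, Stat5b and Jak2 values was not tested. Crlf2, the receptor for TSLP that pairs with Il7r, was at 45.9 and 43.2 in WT and at 29.4 and 28.9 in Qa-2-, the 1 gene of the lists at an unadjusted p under 0.05 that was higher in WT (log2 fold change 0.61, SE 0.15). All 8 SOCS genes, 12 adaptors such as Myd88 and Traf6, and 8 IL-1 processing genes such as Casp1 and Nlrp3 passed the filter, and 0 of them had an unadjusted p under 0.05.

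**Figure D5:**
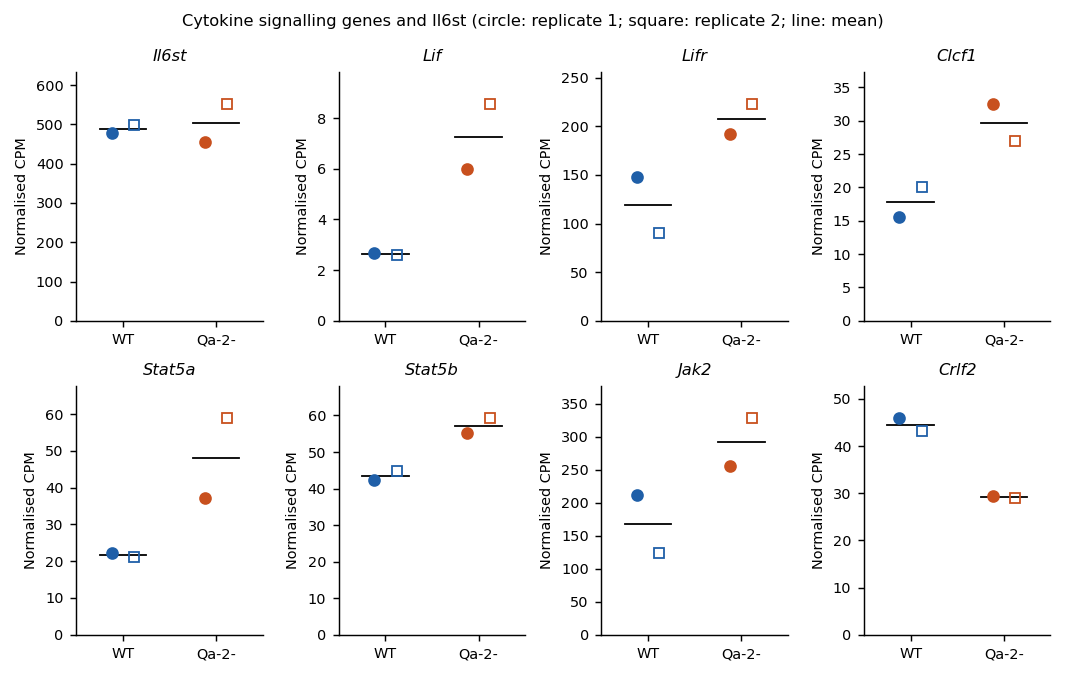
Normalised CPM of Il6st and 7 genes of cytokine signalling by genotype on linear axes (circle for replicate 1, square for replicate 2, line for the mean of 2 mice). Il6st overlaps between genotypes, Lif, Lifr, Clcf1, Stat5a, Stat5b and Jak2 are higher in both Qa-2- libraries, and Crlf2 is lower.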

How the data were processed

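Whole uteri of 2 WT and 2 Qa-2- mice were frozen, and strand-specific mRNA libraries were sequenced, 1 per mouse. The authors deposited raw counts of read pairs per gene. The submitters' processing notes name STAR 2.7.3a, Subread, featureCounts 2.0.0 and GRCm38.p6. The file headers give reverse-strand counting, both ends mapped, mapping quality 3 or higher, and that pairs placed more than once or shared by genes were skipped. Symbols were taken from GENCODE M21, which held 55240 of the 55421 gene identifiers, 54985 of them with the same start and end, and 1 antisense gene (Il1bos) was left out.

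Groups follow the strain given for each library. The 2 libraries of a genotype differed beyond sampling noise (chi-square per gene of 188 in WT and 118 in Qa-2-). A value of 1 CPM stood for 33.3 to 41.0 read pairs, and floors cover counting error only. The filter kept what reached 1 CPM in 2 or more libraries, and the comparison used TMM, glmQLFit and glmQLFTest of edgeR 4.0.16 in R 4.3.3 with Benjamini-Hochberg adjustment over all genes kept. TPM were computed with the gene lengths in the files. The standard error is the log2 fold change divided by the square root of F. Steps were tested on simulated data.

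The members, families and gene lists were chosen with earlier results of these data known. Members are named with their values when they had an unadjusted p under 0.05 or did not overlap between genotypes. The same holds for the 5 with the highest mean TPM and for those that differed at least 3-fold within a genotype. Named too are key cytokines below the filter and at most 3 genes of each pathway list. To these, Il3, Lifr, Csf2rb and Csf2rb2 were added after their values were seen. Alternatives were DESeq2 1.42.0, other scalings and filters, a robust fit, a replicate block, an adjusted p under 0.1, and each library left out, which leaves a lone library assumed to vary like the other group. Chosen after seeing the data were a crossed block, the alternatives for the pathway genes, and leaving out libraries for the counts without overlap. No pairing of the replicate numbers is described, so that no block was used. Proteomic and other experiments of the study were not analysed here.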

Additional observations from a re-analysis of the deposited data

How the results depend on the processing

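By edgeR, 0 of all genes were called, against 700 in DESeq2, 61 with no filter, 2 with the replicate block and between 0 and 93 when 1 library was left out (93 without WT replicate 2). Of the interleukin genes DESeq2 called 5 and of the pathway genes 2, and no other setting called any. The 12 interleukin genes at an unadjusted p under 0.05 became 4 to 13 with 1 library left out (4 without Qa-2- replicate 2), and 11 to 17 under the other settings. The split of 9 (WT higher) and 3 (Qa-2- higher) was 9 and 5 with library totals alone and with DESeq2, 10 and 7 with no filter, 8 and 3 with the replicate block, 7 and 6 with the crossed block, 5 and 8 without WT replicate 1, 7 and 6 without Qa-2- replicate 1, and 3 and 1 without Qa-2- replicate 2. The 21 genes without overlap became 33 to 35 with 1 library left out, since 1 library is easier to separate from 2, and 21 to 28 otherwise. Their split of 14 (WT higher) and 7 (Qa-2- higher) was 16 and 19 without WT replicate 1, 22 and 12 without WT replicate 2, 17 and 17 without Qa-2- replicate 1, and 20 and 13 without Qa-2- replicate 2. The median log2 fold change ran from -0.13 to 0.17 with 1 library left out and was -0.12 with library totals alone, where that of all genes was -0.08.

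The replicate block left 11 genes at an unadjusted p under 0.05 and called 0. Same-numbered libraries deviated in opposite directions (correlation -0.37), and the crossed block gave 13 and called 0. Of 648 values of 54 single genes, 613 kept their direction and side of the threshold and 7, all in DESeq2, passed it. The 28 values that changed sign lay in 19 genes, all with overlapping genotypes and without an unadjusted p under 0.05. With library totals alone they were -0.028 for Il15 and -0.036 for Il17rc. With 1 library left out, the log2 fold change ran from -1.82 to 0.38 for Il1f8 (0.38 without Qa-2- replicate 2), from -1.32 to 0.86 for Il2rb (0.63 without WT replicate 2, 0.86 without Qa-2- replicate 2), from -1.35 to 0.79 for Il7r (0.79 without Qa-2- replicate 2), from -1.70 to 0.15 for Il33 (0.15 without WT replicate 2), from -0.36 to 1.22 for Il4i1 (-0.36 without Qa-2- replicate 1) and from -1.24 to 0.43 for Il18rap. For genes with smaller differences it ran from -0.0039 to 0.24 for Il10rb, -0.55 to 0.17 for Il13ra1, -0.44 to 0.48 for Il16, -0.17 to 0.23 for Il17rc, -0.42 to 0.15 for Il17rd, -0.30 to 0.74 for Il18bp, -0.28 to 0.55 for Il1f5, -0.29 to 0.26 for Il1r1, -0.36 to 0.19 for Il1rap, -0.22 to 0.33 for Il1rl1, -0.53 to 0.37 for Il24 and -0.17 to 0.11 for Il6st. Apart from the counts without overlap, the cause was not tested. For ligands with 0 counts, the depth allows a level of up to 0.0731 to 0.0901 CPM by library.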
